A study of Cicer arietinum with 32 samples.

Results

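The 200 chickpea transcripts described here are those with the highest level in root hair (RH) among transcripts whose expression was close to restricted to it. They were drawn from 38818 transcripts measured in 32 tissues/organs, of which 31 were used to choose them. Restriction was scored with Tau, which is 0 for a transcript at the same level in every tissue and 1 for a transcript present in a single tissue, and which was calculated here on log2(FPKM + 1). FPKM is the number of sequenced fragments normalised to transcript length and to all mapped fragments of the library. The members were thus chosen by their measured FPKM. A transcript was taken as RH-specific at a Tau of at least 0.9 with its highest FPKM in RH. This gave 460 transcripts, of which 12 were listed with a transcription factor (TF) family and were set aside, and the 200 with the highest RH FPKM were kept from the remaining 448. The list of TF families used here ends within the identifiers, so that it covers 69 of the 200 transcripts, and the other 131 may include transcription factors.

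All tissues came from chickpea (Cicer arietinum) genotype ICC4958, with no treatment compared. RH was harvested from 7-day-old seedlings kept in the dark, root (R) and root tip (Rtip) came from 15-day-old seedlings, and germinating seedling (GS) is the whole 5-day-old seedling, its root included. For RH and Rtip a second source gives 5 and 21 days instead. Nodule (Nod) was taken from mature plants in the field, so that age, light and growth place differ together with tissue and cannot be told apart from it. The remaining tissues were shoot (S), mature and young leaf (ML, YL), bracteole (Brac), shoot apical meristem (SAM), flower buds (FB1 to FB4), flowers (FL1 to FL5), calyx (Cal), corolla (Cor), androecium (And), gynoecium (Gyn), pedicel (Pedi), whole seeds named by their age in days after pollination (5DAP, 10DAP, 20DAP, 30DAP), embryo (Emb), endosperm (Endo), seed coat (SdCt) and podshell (PodSh). The sample titled as shoot carries root in another of its labels, and its title was followed. The RH libraries had 54860911 to 80555960 mapped reads, those of R, Rtip, GS and Nod 34930799 to 61598617, and all 94 libraries 27875671 to 102684657.

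A root hair is a tubular outgrowth of a single epidermal cell of the root. It extends by growth at its tip, which needs new wall material, wall loosening, membrane traffic and local reactive oxygen, and it enlarges the surface through which the root takes up water and phosphate. In legumes it is also the place where rhizobia attach and enter. RH here is a preparation of these cells, whereas R and GS hold them as a small part of the organ. In such bulk samples, fewer hair cells and less of a transcript per cell cannot be told apart.

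Each tissue is represented by 1 value per transcript, the average that the authors made of 3 libraries (2 for 20DAP and 30DAP). The spread between replicates is therefore not in these data. No test between tissues was made and all comparisons below are descriptions.

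Only part of the markers for root hair cells behaved as the label of RH would have it. The transcript matched to RHS14 of Arabidopsis thaliana, ROOT HAIR SPECIFIC 14, which encodes a pectate lyase-like protein, was at 1025 FPKM in RH against 4.63 in Rtip, 0.863 in GS and 0.090 in R. This is Ca_TC00743, on chromosome 1 of the kabuli genome from 5681448 to 5683941. The transcript matched to an NADPH oxidase of the respiratory burst type, Ca_TC33968, was at 2.41 FPKM in RH and highest in FL5, at 21.3. The transcript matched to phosphate transporter 1;4, Ca_TC38143, was at 0 in RH and at 55.7 in And. RHS14 was thus the single root hair marker of the 3 that was high in RH, and it is itself among the 200, so that its level there was used in choosing them.

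Markers of other cells were low in RH. Of the annotated transcripts described as parts of the photosystems, light harvesting or rubisco, 70 in all, the summed level in RH was 16.0 FPKM, the lowest of the 31 tissues, against 84.6 in R and 1360.1 in GS. For 5 transcripts described as A or B cyclins or histone H2A, which mark dividing cells, the sum was 101.5 FPKM in RH, 363 in R and 1146 in Rtip. The most abundant sum for the photosynthesis list was in Nod, at 37261 FPKM. Of this, 34487 came from 59 transcripts that the assembly could not align to the chickpea genome. The other 11 summed to 2773 FPKM in Nod, 868 in GS, 42.0 in R, 6.96 in Rtip and 2.27 in RH. Their sum was lowest in RH and highest in Brac, at 3782 FPKM.

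Nod stands apart in its share of unaligned transcripts. Transcripts listed as not aligned to the genome took 56.2% of its summed FPKM, against 0.594% in RH, 0.580% in R, 1.11% in Rtip and 1.03% in GS. The list as used here held 1998 transcripts and was shortened, so that these shares are lower limits. FPKM is relative to all fragments of a library, so that the values of the 200 transcripts in Nod depend on these transcripts. The share of fragments that they took was not calculated, and a share of summed FPKM does not give it. For Nod, the share of summed FPKM, the count at 0.5 FPKM and the count by next tissue are given below with and without the listed unaligned transcripts. Other values in Nod, levels of single transcripts included, are as deposited. Unaligned transcripts missing from the shortened list remain in all of these values. None of the 200 was on the list of unaligned transcripts, which runs past the last of their identifiers.

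The 200 transcripts together held 8.76% of the summed FPKM in RH. Their level spanned more than 3 orders of magnitude, from 6.49 to 12256 FPKM with a median of 41.4. The top 10 made up 60.0% of their sum, and the top transcript alone 19.3%, whereas the lower 100 made up 2.88%. There were 18 transcripts at 1000 FPKM or more, 62 at 100 or more and 28 under 10. The list is therefore made of a few very abundant transcripts and a long tail of moderate ones.

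**Figure D1:**
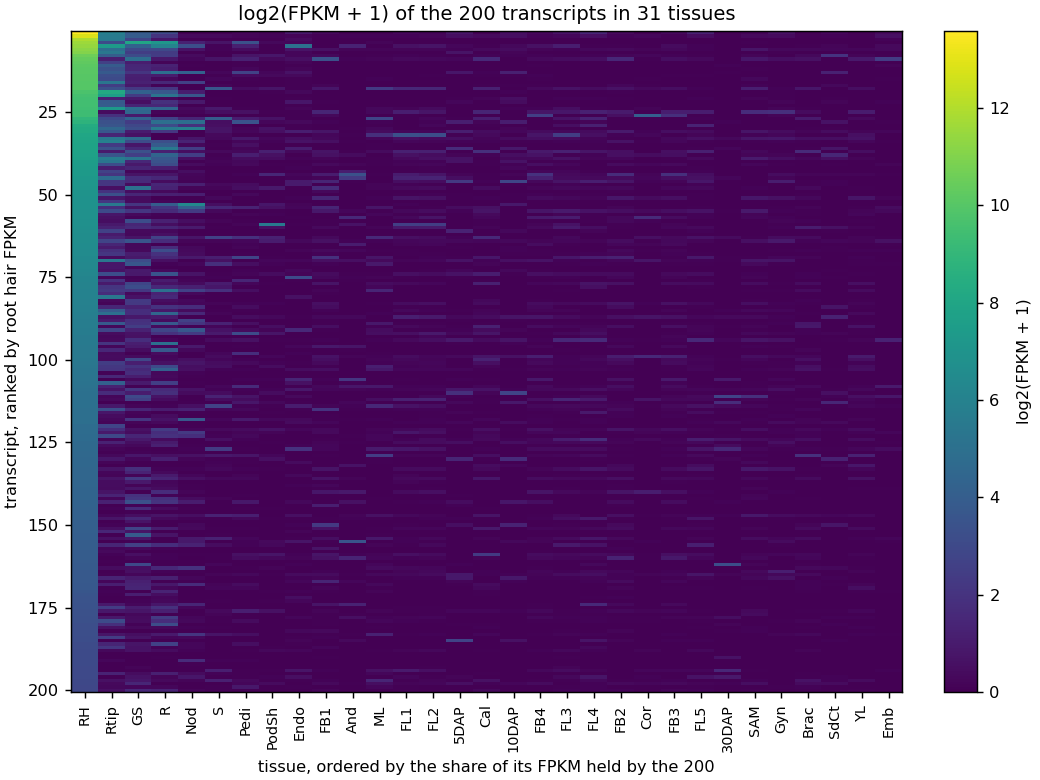
The plot shows log2(FPKM + 1) of the 200 transcripts (vertical axis, by rank of RH FPKM) in 31 tissues (horizontal axis, ordered by the share of summed FPKM that the 200 hold). Colour outside RH is mostly in Rtip, GS, R and Nod, where 125, 128, 104 and 51 of the 200 were at 0.5 FPKM or more.

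The most abundant transcript was Ca_TC30726. It was at 12256 FPKM in RH, 57.2 in Rtip, 13.9 in GS, 6.74 in R and 0.027 in Nod, and its highest value outside these was 1.64, in FL4. No description of its product was available in the sources used here. Ca_TC01439, an mRNA from 11103195 to 11105094 on chromosome 1, followed with 7369.6 FPKM in RH, 49.2 in Rtip, 14.2 in GS, 3.09 in R and 0.260 in Nod. Ca_TC10487 was at 3894 FPKM in RH, 46.0 in Rtip, 5.80 in GS, 0.740 in R and 0 in Nod. In these 3 transcripts the order RH, Rtip, GS, R, Nod was the same, and the step from RH to Rtip was 214-fold, 150-fold and 84.7-fold.

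The next transcripts varied more. Ca_TC05731 was at 3134 FPKM in RH, 260.4 in GS, 138 in R, 7.54 in Rtip and 1.37 in Nod, and these levels in GS and R were the highest of any of the 200 there. Its Rtip level was far below that in R, the reverse of the first 3 transcripts. Ca_TC25633 was at 2807 FPKM in RH, 166 in Rtip, 65.5 in R, 32.4 in Endo, 17.6 in GS and 8.76 in Nod. It reached 0.5 FPKM in 11 tissues other than RH, and its Tau of 0.902 was among the lowest of the list despite its rank of 5.

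Among the 15 most abundant transcripts, the lowest RH value was 1058 FPKM. The tissue of the next highest value was Rtip in 12 of them, GS in 2 and R in 1, and that value lay between 4.86 and 260.4 FPKM. Ca_TC15088 (2348 FPKM in RH), Ca_TC02767 (2132), Ca_TC01803 (1524), Ca_TC20126 (1129), Ca_TC03128 (1096), Ca_TC25777 (1067) and Ca_TC14179 (1058) all had Rtip next, at 7.27 to 40.8 FPKM. Of these, Ca_TC01803 lies on chromosome 1 from 13803337 to 13805559. Ca_TC27638, at 1249.8 FPKM in RH, had only 4.86 in Rtip and 0.150 in R. Ca_TC11206 differed from all of these, with 1309.7 FPKM in RH, 28.9 in GS and 9.49 in FB1 but 1.24 in Rtip and 0.840 in R. Ca_TC21650 had 1086 FPKM in RH and was higher in R (28.9) and Nod (17.7) than in Rtip (13.6).

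Products are named for few of the 200, since the annotation used here covers the first identifiers only. A match in Arabidopsis was listed for 7. RHS14 ranked 17th by RH FPKM and had a Tau of 0.982, and RH was 222-fold above Rtip. Its family cleaves pectin of the cell wall. Ca_TC01073, at chromosome 1 from 8714887 to 8716399, was described by the plant invertase/pectin methylesterase inhibitor superfamily, a group that acts on the wall and on sucrose cleavage. This description does not tell whether the product is an enzyme or an inhibitor. It was at 29.9 FPKM in RH, 12.3 in Nod, 3.33 in GS, 0.580 in R and 0.207 in Rtip, so that Nod and not Rtip or R came next.

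Ca_TC00885 (chromosome 1, 6901825 to 6909744) was described as a leucine-rich repeat protein kinase, a family of membrane receptors. It was at 93.7 FPKM in RH, 8.13 in R, 2.52 in Rtip, 0.280 in Nod and 0.270 in GS. Ca_TC00986 (chromosome 1, 7845692 to 7847644), of the FAD-binding berberine family of oxidoreductases, was at 65.6 FPKM in RH, 8.30 in GS, 3.32 in Rtip and 1.96 in R. Both Ca_TC00885 and Ca_TC00986 had several-fold less in every other root tissue.

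Ca_TC00261 (chromosome 1, 1679647 to 1682275), of the NPH3 family, whose founding member in Arabidopsis acts in phototropism, was at 9.37 FPKM in RH, 1.28 in R and 1.21 in Pedi. Ca_TC02755, described as a TTF-type zinc finger protein with a HAT dimerisation domain, was at 20.5 FPKM in RH and 0.913 in GS. Ca_TC00339 (chromosome 1, 2214509 to 2218570) had a match with no description, and was at 137.6 FPKM in RH, 3.41 in Rtip, 1.77 in R, 1.26 in Nod and 1.00 in Endo. All 7 matched transcripts were at or below an estimated count of 2 in 20DAP.

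Annotated transcripts of pathways known in root hairs, members included, were looked up by their descriptions. As background, 5.9% of all transcripts with 0.5 FPKM in some tissue had their highest value in RH. Of the peroxidases, which use and form reactive oxygen in the wall, 1 of 14 expressed transcripts was highest in RH. It was Ca_TC00923, at 362 FPKM in RH and 201 in R with a Tau of 0.684, so that it is no member. The summed level of the peroxidases was 1638 FPKM in RH, 1608 in Rtip and 1453 in R, and RH was the highest of the 31 tissues. Of the leucine-rich repeat kinases it was 2 of 10, namely Ca_TC00885 and the broadly expressed Ca_TC00421, at 95.6 FPKM in RH and 34.5 in Pedi. The sum of these kinases was also highest in RH, at 198 FPKM against 46.5 in R and 40.4 in Rtip. Ca_TC00885 gave 93.7 of the 198 FPKM and Ca_TC00421 95.6. Since Ca_TC00885 is a member chosen by its RH level, this sum and the count of 2 are not independent of that choice.

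Of the chalcone and stilbene synthases, the entry enzymes of flavonoid synthesis, 1 of 4 was highest in RH. Ca_TC31878 was at 1263 FPKM there but at 1209 in GS, so that this transcript was shared with the seedling. The sum of this list, nearly all of it from Ca_TC31878, was highest in RH, at 1269 FPKM. It was 1219.6 in GS, close to RH, 575 in R and 474 in Rtip. Of the transcripts described as cell wall proteins or enzymes, 1 of 32 was highest in RH, the member Ca_TC01073. The summed level of that list was 160.1 FPKM in RH against 4573 in And. RHS14, at 1025 FPKM in RH, is not in that list, since its description names no wall protein. The count and the sum therefore leave it out, and wall transcripts in RH are not covered fully. For lipoxygenases (14 expressed), pathogenesis-related 1 proteins (3) and phosphate and nitrate transporters (2), the count highest in RH was 0. These lists hold only the transcripts with a description in the parts used here, and their small sizes leave each share imprecise.

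**Figure D2:**
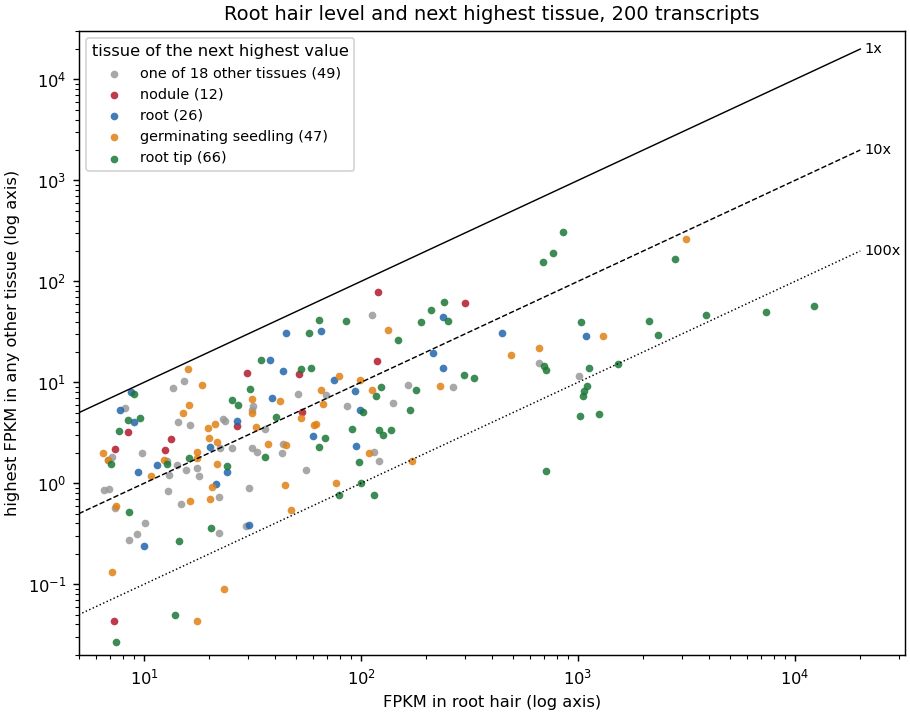
Each point is a transcript, with its FPKM in RH on the horizontal log axis and its highest FPKM in any other tissue on the vertical log axis, coloured by that tissue. The lines mark equal levels and differences of 10-fold and 100-fold, and 110 of the 200 points lie at or below the 10-fold line.

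For the whole list the level in RH was a median of 11.9 times that in the next tissue, from 1.10 to 539 times. It was at least 10 times for 110 transcripts and at least 100 times for 18, while 13 were below 2 times. Over all transcripts, 0.554% had a level in RH at least 10 times that in any other tissue, a contrast that the choice of the 200 used. On the log2(FPKM + 1) scale, which understates the difference of low transcripts, the median difference was 2.99 between RH and the next tissue. It was 4.07 between RH and Rtip, 4.17 for GS, 4.29 for R and 4.73 for Nod, where the medians over all transcripts lay between -0.11 and 0.07.

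What separates the 200 among themselves is where the residual expression lay. The next highest value was in Rtip for 66 transcripts, in GS for 47, in R for 26 and in Nod for 12. The remaining 49 were spread over 18 tissues outside the root. The transcripts with Rtip next were the most abundant, with a median of 118.9 FPKM in RH, and they held 76.4% of the summed RH FPKM of the 200. The median was 31.6 with GS next, 41.2 with R next, 28.3 with Nod next and 22.4 with another tissue next.

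The groups also differed in how far RH stood above. RH was a median of 22.9 times the next tissue where that was Rtip, 11.8 times for GS, 8.17 times for R and 4.90 times for Nod. The transcripts with Nod next were therefore the least separated from it, and Nod values depend on its unaligned transcripts as described above. With tissues scaled to a common sum without the listed unaligned transcripts, 26 of the 200 had Nod next in place of 12. R was next for 22 in place of 26, so that the order of R and Nod by this count turned round. Rtip then came next for 62 and GS for 44.

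**Figure D3:**
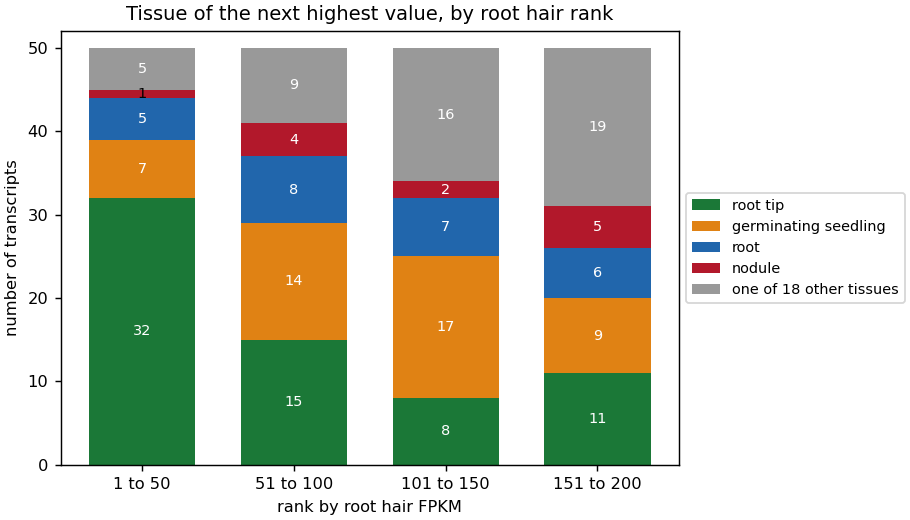
Bars count the tissue of the next highest value (colours) in 4 blocks of 50 transcripts by rank of RH FPKM (horizontal axis). Rtip is next for 32 of the 50 most abundant transcripts and for 11 of the 50 least abundant, and tissues outside the root rise from 5 to 19.

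Rank by RH level and the tissue that came next went together. Of ranks 1 to 50, 32 had Rtip next, and of ranks 51 to 100, 101 to 150 and 151 to 200 it was 15, 8 and 11. Tissues other than Rtip, GS, R and Nod came next for 5, 9, 16 and 19 transcripts in the same order. The median ratio of RH to the next tissue fell from 29.7 to 15.3, 9.50 and 7.31. RH level both set the ranks and is the upper part of this ratio, and Tau limited the list. Nothing is therefore read from this fall, and the counts by rank are descriptions. In ranks 151 to 200 the median level was only 0.219 FPKM in Rtip, 0.170 in R and 0.404 in GS, so that small differences decided which tissue came next.

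Rtip was above R for 114 of the 200 and below it for 76, with 10 equal, where 46.2% of all transcripts were higher in Rtip. Among ranks 1 to 50 it was above in 41 and below in 9, among ranks 51 to 100 above in 30 and below in 20, among ranks 101 to 150 above in 19 and below in 27, and among ranks 151 to 200 above in 24 and below in 20. The median level of the 50 most abundant was 9.26 FPKM in Rtip, 2.87 in GS, 2.27 in R and 0.239 in Nod. The abundant transcripts thus mostly had more residual signal in the tip than in the whole root, ranks 51 to 100 leaned the same way by a smaller margin, and the lower 100 were divided.

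**Figure D4:**
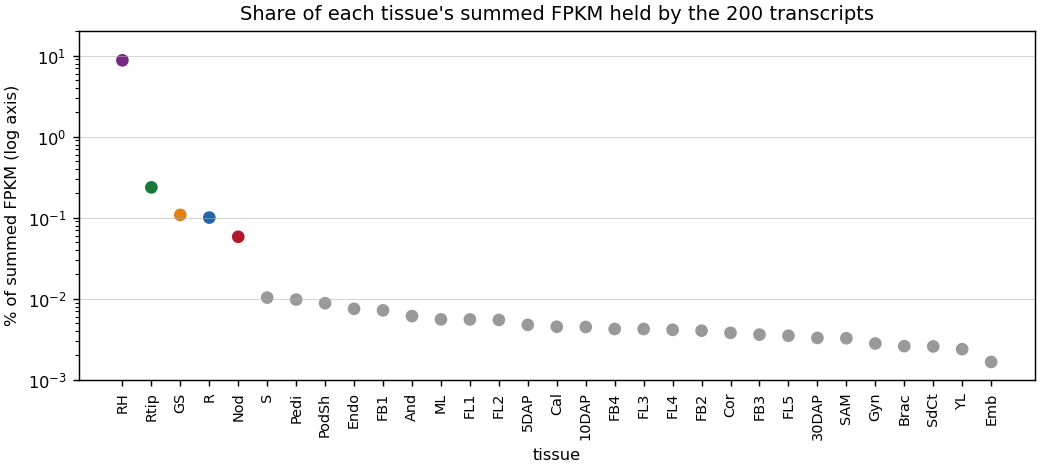
Points give the percentage of each tissue's summed FPKM that the 200 transcripts hold (vertical log axis) for 31 tissues (horizontal axis). RH stands at 8.76%, Rtip, GS, R and Nod between 0.0582% and 0.237%, and the other 26 tissues at or below 0.0103%.

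Summed over the list, the 200 transcripts held 0.237% of the FPKM in Rtip, 0.108% in GS, 0.101% in R and 0.0582% in Nod. Without the listed unaligned transcripts the share in Nod was 0.133%, above that in R, and the share in RH was 8.81%. The 26 tissues outside these held between 0.00166% (Emb) and 0.0103% (S). The sum in RH, 63392 FPKM, was 32.8 times that in Rtip, 73.5 times that in R and, with the values as deposited, 182 times that in Nod.

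The number of transcripts at 0.5 FPKM or more varied between the tissues. In Rtip 125 of the 200 passed, or 62.5% against 57.4% of all transcripts. In GS it was 128, or 64.0% against 61.9%, and in R 104, or 52.0% against 56.6%. In Nod it was 51, or 25.5% against 47.7%. With tissues scaled to a common sum without the listed unaligned transcripts it was 91 in Nod, or 45.5% against 57.7%. In And, the tissue of the pollen with its own tip-growing cells, it was 16, or 8.0% against 57.2%. The choice of the 200 by a high Tau limits how many tissues a transcript can reach, so that nothing is read from these shares.

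At least 1 tissue other than RH reached 0.5 FPKM for 185 of the 200, and a median of 4 tissues did. No other tissue did for 15 transcripts, 1 or 2 did for 63, and 10 or more for 16. All of R, Rtip and GS were at 0.5 FPKM or more for 72 transcripts, and all of R, Rtip, GS and Nod were under it for 33. The 200 thus range from transcripts at 0.5 FPKM in all of R, Rtip and GS to transcripts at that level in RH alone. A high Tau limits this breadth, and the same counts over all transcripts are not given here. They are therefore descriptions of the list only.

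The highest And level among the 200 was that of Ca_TC34028, at 15.3 FPKM in RH, 10.4 in And, 0.833 in Nod and 0 in R and Rtip. Its level in RH was thus 1.475 times that in And. Ca_TC24889 had the highest Rtip level, with 849 FPKM in RH, 306 in Rtip, 18.3 in GS and 11.9 in R. Ca_TC19993 had the highest Nod level, with 119 FPKM in RH, 77.9 in Nod, 44.1 in Rtip and 14.5 in R. In all 3 the level in RH was within 2.78-fold of that in the next tissue.

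The transcripts with the highest Tau were low ones. They were Ca_TC07448 (7.42 FPKM in RH, Tau 0.9994), Ca_TC13115 (17.6, 0.9991), Ca_TC02780 (13.9, 0.999), Ca_TC17669 (7.28, 0.9979) and Ca_TC10792 (23.4, 0.9959), and none of them exceeded 0.09 FPKM elsewhere. Ca_TC07448 and Ca_TC02780 were at exactly 0 in 28 of the 30 other tissues. The lowest Tau values were those of Ca_TC27429 (18.4 FPKM in RH, Tau 0.901), Ca_TC19993 (0.9016), Ca_TC28550 (211 FPKM, 0.9019), Ca_TC25633 (0.9023) and Ca_TC21154 (99.1 FPKM, 0.9028). Ca_TC27429 had 9.38 FPKM in GS, and Ca_TC28550 52.1 in Rtip and 35.9 in GS. The 5 transcripts with the highest Tau all ranked 128 or lower by RH level.

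Both limits of the list fell within a continuous range of values. The last 2 transcripts kept were Ca_TC14912 and Ca_TC24381, at 6.55 and 6.49 FPKM in RH, and the next were Ca_TC01899 and Ca_TC02756, at 6.40 and 6.30. With an RH level that would have sufficed, Ca_TC27838 (15.2 FPKM, Tau 0.8992) and Ca_TC31319 (399 FPKM, Tau 0.8998) fell just short of the Tau of 0.9. Of the 12 transcripts with a TF family, 9 would have entered by their RH level. These were MYB transcripts Ca_TC06410 (138.8 FPKM in RH), Ca_TC01765 (86.7) and Ca_TC09818 (49.7), LOB transcripts Ca_TC05376 (61.3) and Ca_TC09681 (20.6), bHLH transcripts Ca_TC11323 (47.3), Ca_TC11324 (42.4) and Ca_TC11146 (33.2), and the AP2-EREBP transcript Ca_TC07888 (17.8). MYB and bHLH are the families that hold known regulators of root hair fate and growth in Arabidopsis.

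The 20DAP seed was not used in choosing the transcripts, and its values are estimated counts, so that no fold change against other tissues was made. An estimated count of at least 1 was found for 75 of the 200, or 37.5%, against 70.0% of all transcripts. At a count of at least 10 it was 12, or 6.0%, against 56.2%. Exactly 0 was listed for 98. Most of the 200 were thus at or near 0 in a further tissue that had no part in the rule, although transcripts low in the other seed samples had been favoured by it.

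A few were present in that seed. Ca_TC31870 had the highest estimated count, 157, and was at 31.9 FPKM in RH, 5.89 in 10DAP and 2.58 in R. Ca_TC24103 followed with 103.5, and was at 31.6 FPKM in RH, 2.25 in 30DAP, 1.74 in SdCt and 0.040 in R. Both therefore had residual signal in other seed samples too. Ca_TC21651 (64.8), Ca_TC31157 (60.3) and Ca_TC21650 (57.5) were the others above 50, and Ca_TC31157 was under 0.6 FPKM in each of the 30 other tissues.

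Transcript types were listed for 64 of the 200, with 53 mRNAs and 11 long noncoding RNAs (lncRNAs), or 17.2% lncRNA. Among the 248 RH-specific transcripts of lower level that were not kept, 27 of 55 typed ones were lncRNAs, or 49.1%. The median RH level was 79.3 FPKM for the mRNAs and 16.0 for the lncRNAs, which ranged from 6.91 to 172. The most abundant lncRNA was Ca_TC02766, with 172 FPKM in RH, 1.65 in GS, 1.16 in Rtip and 1.11 in R. The list was limited by RH level, so that nothing is read from this difference in shares.

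Of the 11 lncRNAs, 6 had their next value in Rtip, GS, R or Nod. Ca_TC04932 (86.1 FPKM in RH) had Pedi next at 5.85, and Ca_TC05492 (31.4) had S next at 5.36. Ca_TC07727 was hardly separated from GS, at 16.0 FPKM in RH and 13.6 in GS. Ca_TC08250 was at 31.6 FPKM in RH and 6.87 in GS. The separation of lncRNAs from other tissues therefore varied widely.

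Where positions were listed, identifier numbers followed the genome closely. Consecutive numbers with listed positions, 1805 pairs on chromosome 1, were a median of 2450.0 bp apart, and 96.0% were within 20 kb. Among the 200, 28 transcripts fell into 13 runs of consecutive numbers, 2 of which held 3 transcripts. No position of these 28 transcripts was used here, so that adjacency in the genome is not shown. Reads from near-identical transcripts are shared out by the estimation of abundance, and whether that touches these runs was not tested.

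**Figure D5:**
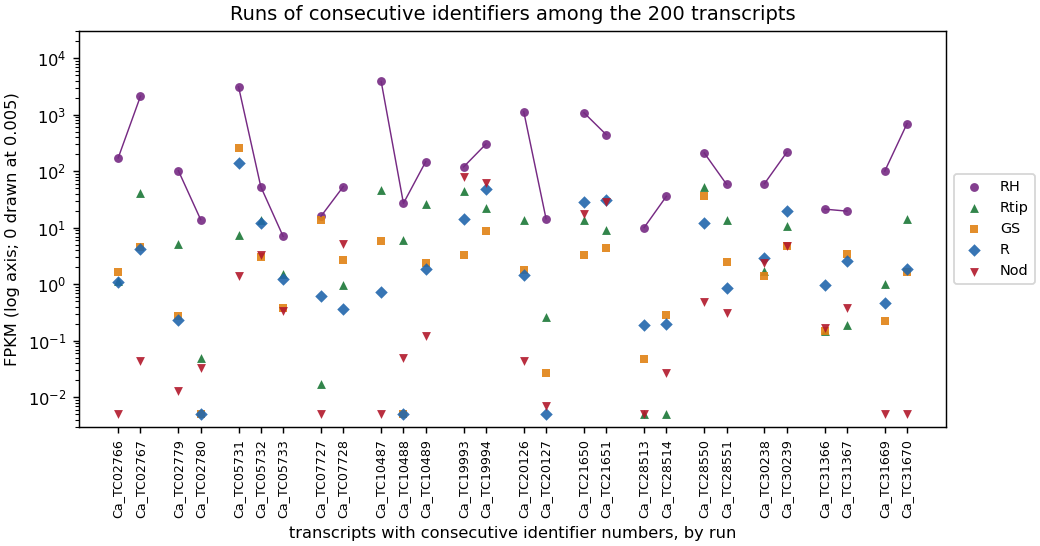
Points give the FPKM in RH, Rtip, GS, R and Nod (vertical log axis, values of 0 drawn at 0.005) for the 28 transcripts in runs of consecutive identifiers (horizontal axis), with lines joining the RH values of a run. RH levels differ within a run by 1.08-fold to 444-fold.

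The runs of 3 each held 1 very abundant transcript. In one of them Ca_TC10487 was at 3894 FPKM in RH, Ca_TC10488 at 27.1 and Ca_TC10489 at 148, and all had Rtip next, at 46.0, 5.96 and 26.3 FPKM. Nod was at or below 0.120 FPKM in all 3. In the other, Ca_TC05731 was at 3134 FPKM, Ca_TC05732 at 53.1 and the lncRNA Ca_TC05733 at 7.06. The first of these had GS next while the others had Rtip next, at 13.5 and 1.54 FPKM, so that the transcripts of this run differed in pattern as well as level.

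Within the 13 runs the RH levels differed by a median of 3.59-fold, and in 1 run by less than 2-fold. The transcripts of a run shared the tissue of the next highest value in 8 of the 13. Ca_TC21650 and Ca_TC21651 were at 1086 and 444 FPKM in RH, with R next at 28.9 and 30.7, and Ca_TC19993 and Ca_TC19994 at 119 and 302, with Nod next at 77.9 and 60.7. The lncRNA Ca_TC02766 and the mRNA Ca_TC02767, whose identifiers are consecutive but whose positions were not used here, were at 172 and 2132 FPKM in RH. Ca_TC21650 and Ca_TC21651 also shared the order R, Nod, Rtip, GS, whereas Ca_TC07727 (GS next, 13.6 FPKM) and Ca_TC07728 (Nod next, 5.09 FPKM) differed in the next tissue.

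The same rule applied to And, Endo and 5DAP gave lists for a comparison of scale. The 200 RH transcripts held 8.76% of the FPKM of their tissue, the 200 of Endo 14.7%, those of And 0.964% and those of 5DAP 0.753%. The median level was 41.4 FPKM for RH, 216 for Endo, 18.9 for And and 10.4 for 5DAP. The own tissue stood a median of 11.9 times above the next in RH, 32.1 in Endo, 4.37 in And and 7.07 in 5DAP. RH was thus second to Endo in all of these measures, which the rule itself bears on.

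In the 20DAP seed, which the rule did not use, 37.5% of the RH list had an estimated count of at least 1, against 68.5% of the Endo list, 19.0% of the And list and 5.0% of the 5DAP list. Runs of consecutive identifiers held 28 RH transcripts, 45 of Endo, 30 of 5DAP and 20 of And. The share of lncRNAs among typed transcripts was 17.2% for RH, 7.35% for Endo, 26.3% for And and 38.2% for 5DAP, in the reverse order of the median levels.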

How the data were processed

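The authors filtered paired-end reads, aligned them with bowtie2 to their own chickpea transcriptome assembly, used RSEM to estimate abundance and took the mean over the libraries of a tissue. The deposited values are FPKM for 31 tissues. For 20DAP the authors deposited estimated counts under an FPKM heading: they sum to 29579443.3, close to the mean of 29579762 mapped read pairs of its libraries, and they were used on their own only. Transcript types, TF families, descriptions, positions and mapped reads came from the parts of the paper's supplementary tables used here, which are shortened. Coordinates are on the kabuli v1.0 genome. Columns of comparisons made by the authors were not used.

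Tau was calculated as the sum of 1 - L/max L over 31 tissues, divided by 30, with L = log2(FPKM + 1), in Python 3.11.15 (pandas 2.3.3, numpy 2.4.6), and was tested on simulated data. A transcript counted as expressed at 0.5 FPKM. With 1 averaged value per tissue no test was made. The members and lists were chosen with earlier results of these data known. Transcripts named are the 15 with the highest RH FPKM, those with a listed match, the highest in R, Rtip, GS, Nod, And and 20DAP, those at the thresholds of rank and Tau and at both ends of Tau, runs of 3 consecutive identifiers, and TF transcripts left out. Other transcripts named were chosen after their values were seen. Pseudocounts, thresholds, scalings and tissues left out were varied. RefSeq genes were not used, since they have no identifier in common with the transcripts.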

Additional observations from a re-analysis of the deposited data

How the results depend on the processing

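The size, overlap and RH share of the list, counts per tissue, median log2 differences, counts by next tissue, 20DAP detection and runs of identifiers were recalculated under other choices. Of the 104 values, 84 stayed within 1.5-fold (or 0.58 on the log2 scale), and both log2 differences stayed positive. The members were chosen for having their highest FPKM in RH, so that this sign was largely given. Some of the 84 values could not change. The floors set on RH FPKM lay below the lowest member, and a pseudocount does not alter which tissue comes next. Rank blocks, ratios, Rtip against R, transcript types, pathway lists and the And, Endo and 5DAP lists were not recalculated. The composition of the list depended most on how Tau is scaled. The number of RH-specific transcripts was 257 with a pseudocount of 0.1, 240 at a Tau threshold of 0.95, 911 with Tau on untransformed FPKM and 851 after quantile normalization, against 460. Of the 200, 86, 106, 89 and 49 were shared with a pseudocount of 0.1, a pseudocount of 10, a Tau threshold of 0.95 and untransformed FPKM. The share of RH FPKM was then 2.96% (pseudocount of 0.1), 3.81% (threshold of 0.95) and 24.7% (untransformed). Leaving out R, Rtip, GS or Nod kept 173 to 184 of the 200. With a pseudocount of 0.1 the median log2 difference between RH and R was 6.10. Counts in Nod were 105 at 0.1 FPKM and 91 with the common sum without the listed unaligned transcripts. Nod was next for 26 under that scaling and under quantile normalization, with 22 and 30 for R. The scaling without listed unaligned transcripts was chosen after seeing the data. In And, 33 passed 0.1 FPKM and 10 passed 1 FPKM. Shares of all transcripts at 0.1 and 1 FPKM are not given here, so that nothing is read from the counts at these thresholds. In 20DAP, 12 reached an estimated count of 10, and 45 transcripts had a neighbour within 5 identifiers. The cause of these shifts was not tested. No paired analysis was possible because each tissue has 1 averaged value, and for the same reason no replicate could be left out.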
